A study of Mus musculus with 30 samples.

Results

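The giant and scaffold proteins of the sarcomere, the contractile unit of striated muscle, were followed through 9 genes chosen by name. They were titin (Ttn) and nebulin (Neb), the M-band proteins myomesin 1 (Myom1) and M-protein (Myom2), the slow and fast skeletal forms of myosin-binding protein C (Mybpc1 and Mybpc2), the muscle alpha-actinins (Actn2 and Actn3) and the small muscle protein of the costamere (Smpx). These are 9 of the 19938 genes that had a transcript cluster, the array's set of probes for a transcribed unit, carrying a single gene symbol, and each of the 9 had 1 such cluster. RNA was taken from the ground sclera of 30 Balb/cJ mice, an inbred albino strain, and each RNA was hybridized to its own Affymetrix whole-transcript array. The mice belonged to the same family, and 6 mice gave 1 sclera each at each of postnatal weeks 1, 2, 3, 6 and 8. The groups differed in age, and no treatment or engineered allele was named for any of them, nor was the sex or litter of a mouse. The study asked which genes change in the sclera as it grows after birth.

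In a sarcomere, thin filaments of actin are anchored at the Z-disc and slide along thick filaments of myosin, which are held in register at the M-band. Titin runs from the Z-disc to the M-band and acts as a molecular spring and scaffold, nebulin lies along the thin filament and stabilizes its length, and myosin-binding protein C sits on the thick filament. The sclera itself is a fibrous connective tissue made mainly by fibroblasts, and the extraocular muscles that move the eye are attached to its outer surface.

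The sequence just before the transcription start is shown for the 4 genes in which it held a letter pattern of factors known from muscle promoters. RefSeq windows of 250 bases (build GRCm38.p6) were read for 6 of the 9 genes. Windows on the minus strand are written along that strand, so that each line runs toward the start of its gene. The capitals mark the pattern found. The windows lie at chr2:76982548-76982797 on the minus strand for Ttn, chr17:71019307-71019556 on the plus strand for Myom1, chr10:88605153-88605402 on the minus strand for Mybpc1 and chr7:44524670-44524919 on the minus strand for Mybpc2.
Ttn: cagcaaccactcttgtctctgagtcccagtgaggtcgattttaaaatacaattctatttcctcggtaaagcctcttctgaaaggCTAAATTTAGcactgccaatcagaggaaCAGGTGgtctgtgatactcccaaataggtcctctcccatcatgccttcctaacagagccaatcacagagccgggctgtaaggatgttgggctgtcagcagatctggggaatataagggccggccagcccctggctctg
Myom1: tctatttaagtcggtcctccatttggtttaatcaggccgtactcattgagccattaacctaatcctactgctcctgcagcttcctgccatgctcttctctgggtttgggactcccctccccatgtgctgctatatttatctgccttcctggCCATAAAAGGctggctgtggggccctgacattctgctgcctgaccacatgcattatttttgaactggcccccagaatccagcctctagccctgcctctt
Mybpc1: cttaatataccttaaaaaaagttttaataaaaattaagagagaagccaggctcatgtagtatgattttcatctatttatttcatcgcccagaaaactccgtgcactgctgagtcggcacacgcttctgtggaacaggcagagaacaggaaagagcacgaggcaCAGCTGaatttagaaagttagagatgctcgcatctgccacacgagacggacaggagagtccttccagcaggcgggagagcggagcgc
Mybpc2: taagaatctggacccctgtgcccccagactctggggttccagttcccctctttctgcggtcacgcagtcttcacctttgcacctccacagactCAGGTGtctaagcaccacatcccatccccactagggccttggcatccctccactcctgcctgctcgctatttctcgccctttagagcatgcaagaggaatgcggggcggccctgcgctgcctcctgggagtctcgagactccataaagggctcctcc
In Ttn the capitals are a MEF2 pattern, the letters read by a family of muscle transcription factors, 166 to 157 bases before the start, and an E-box, the pattern read by myogenic basic helix-loop-helix factors, 138 to 133 bases before it. In Myom1 they are a CArG box, the pattern of serum response factor, 99 to 90 bases before the start. In Mybpc1 they are the E-box CAGCTG, 87 to 82 bases before the start, and in Mybpc2 the E-box CACCTG read on the other strand as CAGGTG, 157 to 152 bases before it. Both strands were searched and no match overlapped another. The windows of Actn2 and Smpx held none of these letters, and Neb, Myom2 and Actn3 are only named here. Of 32851 windows of the same length before mouse transcription starts, 2.92% held the MEF2 pattern, 1.47% the CArG box, 13.0% CAGCTG and 17.2% CACCTG. The matches describe these letters and are not evidence of binding.

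Arrays were compared before the genes were read. The median log2 signal of an array over 35556 transcript clusters lay between 6.15 and 6.37, no 2 arrays were identical, and the highest correlation between arrays was 0.991. The interquartile range of an array, the width of the middle part of its signals, differed between weeks. Its mean was 2.70 at week 1, 2.36 at week 2, 2.75 at week 3, 2.44 at week 6 and 2.53 at week 8. Quantile normalization, which gives all arrays the same spread, was among the alternatives tried. The array of week 2 replicate 4 equalled the mean of its week in every one of the 35556 clusters, to within 6.7e-05, so it carried no values of its own, and week 2 means are given with the spread over the other 5 arrays (n = 5). The arrays of week 6 replicates 4 and 6 together averaged to the mean of week 6 in every cluster, to within 5e-05. The methods of the study describe removal of a batch effect by scan date, and whether that step made these arrays was not tested. Means do not depend on them, but p-values and standard errors do. Below, a fit without the week 2 array and with a term for the week 6 pair is given where it changed a member's call. The sclera was checked against 10 markers of fibroblasts and matrix, whose mean log2 signal lay between 8.74 and 11.0 on all 30 arrays. Markers of striated muscle were also present: 12 of them, none among the 9 genes, had a mean log2 signal of 10.9 ± 0.775 (SD, n = 6) at week 1, 7.34 ± 0.607 (SD, n = 5) at week 2, 7.19 ± 0.629 (SD, n = 6) at week 3, 9.73 ± 0.686 (SD, n = 6) at week 6 and 10.3 ± 0.571 (SD, n = 6) at week 8.

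Most of the genes for the sarcomere scaffold were high at week 1, low at weeks 2 and 3 and high again at weeks 6 and 8. Myom2 was called in no comparison, and Myom1 was not called higher at week 6 or week 8 than at week 2. From week 1 to week 2, 8 of the 9 genes fell by at least 2-fold at an adjusted p of 0.05 or less, the rule for a call used throughout, against 7.73% of all transcript clusters called lower in that comparison. From week 3 to week 6, 8 of the 9 rose, against 3.9% of all clusters called higher. Between week 2 and week 3 only Smpx was called, lower, against 1.72% of all clusters called lower, and between week 6 and week 8 none of the 9 was called in limma's fit and none had an unadjusted p under 0.05, against 1.11% of all clusters called higher and 2.67% called lower. The median log2 fold change of the 9 genes was -3.04 for week 2 versus 1, -0.34 for week 3 versus 2, 2.57 for week 6 versus 3 and 0.08 for week 8 versus 6, and over all clusters the medians were 0.06, -0.05, 0.09 and -0.07. At week 3 the means of Neb, Myom2, Mybpc1, Actn3 and Smpx lay below the lowest array median (6.15), and the data used here hold no detection calls, so the folds against that week rest on dim signals whose background correction is unsettled. In whole sclera, fewer cells of a type and less RNA per cell cannot be told apart. All 12 striated muscle markers were also called lower from week 1 to week 2 and higher from week 3 to week 6. Their part in the changes of the 9 genes was not tested.

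**Figure D1:**
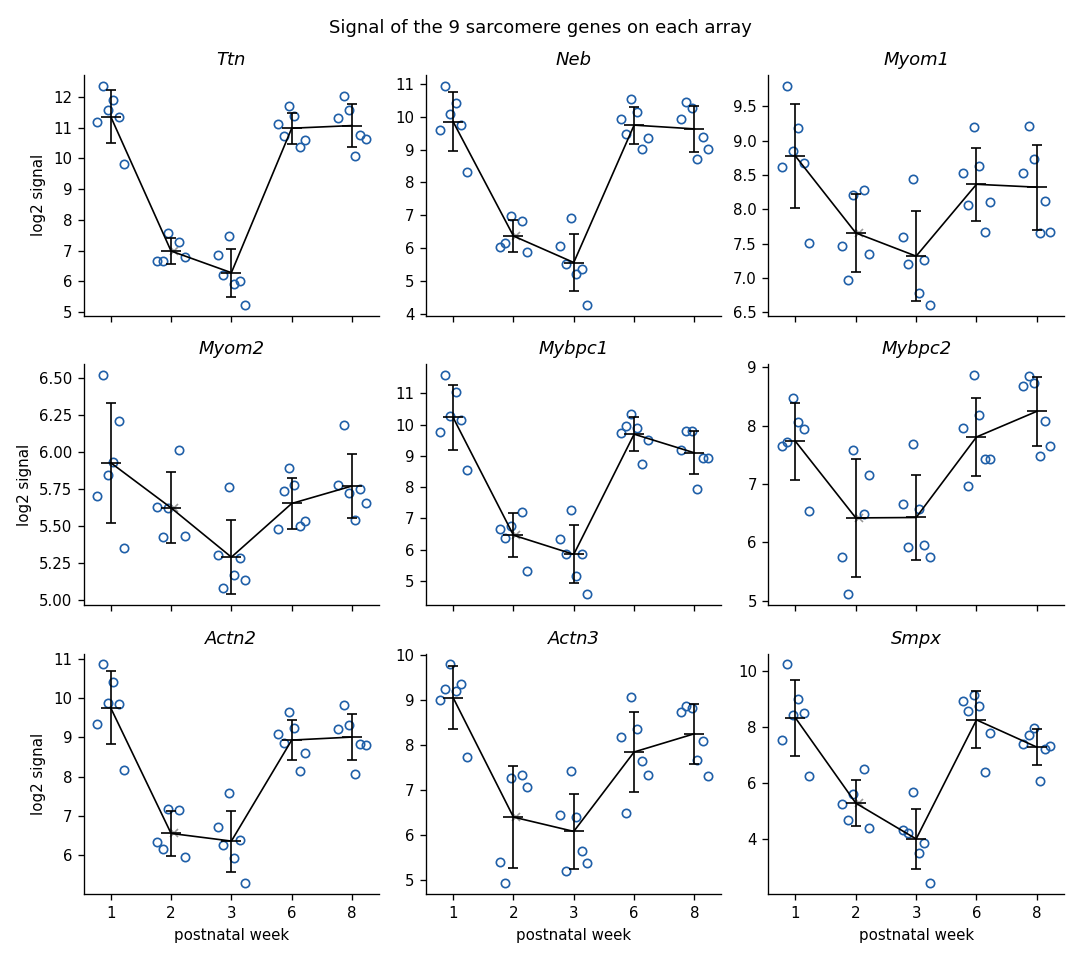
Log2 signal of each of the 9 genes (vertical axes) against postnatal week (horizontal axis). Circles are single arrays, the grey cross is the week 2 array that equals its week's mean, and horizontal bars with error bars are the mean and SD (n = 6, n = 5 at week 2). Ttn fell from a mean of 11.36 at week 1 to 6.29 at week 3 and stood at 11.07 at week 8, while Myom2 moved between 5.29 and 5.93.

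Ttn showed the widest swing among the 9 genes. At week 1 its log2 signal was 9.81 on the lowest array, 11.46 in the median and 12.37 on the highest. At week 2 the 5 arrays read 6.65, 6.66, 7.57, 7.27 and 6.79, and at week 3 the arrays ran from 5.25 through a median of 6.11 to 7.47. The highest array of weeks 2 and 3 lay below the lowest array of week 1. At week 6 Ttn ran from 10.4 through 10.9 to 11.7 and at week 8 from 10.1 through 11.04 to 12.04, so that no array of weeks 6 or 8 overlapped one of weeks 2 or 3. In limma, Ttn was 20.7-fold lower at week 2 than at week 1 (log2 fold change -4.37, SE 0.36, adjusted p = 2.75e-10) and 26.0-fold higher at week 6 than at week 3 (log2 fold change 4.70, SE 0.36, adjusted p = 2.8e-11). Week 8 stood 1.22-fold below week 1, which did not pass (adjusted p = 0.506), and the 95% interval of that log2 difference ran from -1.04 to 0.45. In the order of the weeks, 1 above 8, 6, 2 and 3, only the step from week 6 down to week 2 was called. The paper also measured Ttn by quantitative PCR on pooled sclerae of other mice. There the rise from week 3 to week 6 was much smaller than on the arrays, a gap that the paper itself points out.

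Neb followed Ttn closely. Its log2 signal at week 1 was 8.31 on the lowest array, 9.91 in the median and 10.9 on the highest. The corresponding values were 5.88, 6.15 and 6.97 at week 2 and 4.28, 5.45 and 6.91 at week 3. These low weeks did not overlap with week 1 or with weeks 6 and 8, where the arrays ran from 9.01 to 10.5 and from 8.71 to 10.5. Neb was 11.2-fold lower at week 2 than at week 1 (log2 fold change -3.48, SE 0.39, adjusted p = 2.27e-08) and 18.2-fold higher at week 6 than at week 3 (log2 fold change 4.18, SE 0.39, adjusted p = 8.33e-10). Week 3 was 1.75-fold below week 2, short of the call (adjusted p = 0.0822). Without the array of week 3 replicate 3 this step was called, with a log2 fold change of -1.08 and an adjusted p of 0.0207.

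The M-band proteins moved least from week 1 to week 2 and from week 3 to week 6. Myom1, which crosslinks thick filaments at the M-band, ran from 7.50 through a median of 8.76 to 9.80 at week 1, from 6.97 through 7.46 to 8.28 at week 2 and from 6.61 through 7.23 to 8.45 at week 3. At week 6 the values were 7.67, 8.32 and 9.20, and at week 8 they were 7.66, 8.32 and 9.21. Arrays of every pair of weeks overlapped. Myom1 was 2.17-fold lower at week 2 than at week 1 (adjusted p = 0.00476) and 2.07-fold higher at week 6 than at week 3 (adjusted p = 0.0099), both just past the fold of 2. The first of these calls was lost without week 1 replicate 2 or week 2 replicate 2, at log2 fold changes of -0.91 and -0.98, and the second was lost without week 3 replicate 4, week 3 replicate 6, week 6 replicate 3 or week 6 replicate 4, at log2 fold changes of 0.88 to 1.00. Myom2, the M-protein, is known from fast fibres. Its means were 5.93 ± 0.404 (SD, n = 6) at week 1, 5.62 ± 0.239 (SD, n = 5) at week 2, 5.29 ± 0.248 (SD, n = 6) at week 3, 5.65 ± 0.170 (SD, n = 6) at week 6 and 5.77 ± 0.217 (SD, n = 6) at week 8, with every week mean below the array medians. It was not called in any of the 10 comparisons between weeks, since no fold reached 2. The difference of 1.55-fold between week 3 and week 1 and that of 1.39-fold between week 8 and week 3 passed the p threshold alone (adjusted p = 0.000802 and 0.00989). So did the rise of 1.28-fold from week 3 to week 6 (limma, adjusted p = 0.0384).

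The slow and fast forms of myosin-binding protein C differed in their course. Mybpc1, the slow skeletal form, ran from 8.56 through a median of 10.2 to 11.6 at week 1, from 5.31 through 6.66 to 7.21 at week 2 and from 4.59 through 5.87 to 7.27 at week 3. At week 6 its arrays ran from 8.75 through 9.81 to 10.3 and at week 8 from 7.95 through 9.06 to 9.81, with no overlap with weeks 2 and 3. It was 13.6-fold lower at week 2 than at week 1 (log2 fold change -3.76, SE 0.43, adjusted p = 3.09e-08) and 14.3-fold higher at week 6 than at week 3 (log2 fold change 3.84, SE 0.43, adjusted p = 2.2e-08). Mybpc1 was the only one of the 9 genes called between week 8 and week 1, where it was 2.19-fold lower (adjusted p = 0.0275), against 4.8% of all clusters called lower. That call was lost without week 1 replicate 2, week 1 replicate 4 or week 8 replicate 4, at adjusted p values of 0.0859, 0.0737 and 0.0813.

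Mybpc2, the fast skeletal form, was measured at 6.53, 7.83 and 8.46 on the lowest, median and highest arrays of week 1. The 5 arrays of week 2 read 5.76, 5.11, 7.58, 6.48 and 7.15, and week 3 ran from 5.75 through 6.26 to 7.69. The low weeks overlapped with week 1, and the week 2 arrays spread over more than 2 log2 units. Week 6 ran from 6.96 through 7.70 to 8.86 and week 8 from 7.49 through 8.38 to 8.84. Mybpc2 was 2.48-fold lower at week 2 than at week 1 (adjusted p = 0.00404) and 2.60-fold higher at week 6 than at week 3 (adjusted p = 0.00358). Its mean was highest at week 8, 1.43-fold above week 1, which did not pass (adjusted p = 0.262).

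Both alpha-actinins of muscle fell and rose again. Actn2, which crosslinks actin at the Z-disc of all striated fibres, ran from 8.17 through a median of 9.85 to 10.8 at week 1, from 5.97 through 6.34 to 7.17 at week 2 and from 5.29 through 6.33 to 7.59 at week 3. At week 6 it ran from 8.15 through 8.97 to 9.63 and at week 8 from 8.07 through 9.02 to 9.82, again with no overlap with weeks 2 and 3. Actn2 was 9.13-fold lower at week 2 than at week 1 (log2 fold change -3.19, SE 0.37, adjusted p = 4.13e-08) and 5.92-fold higher at week 6 than at week 3 (log2 fold change 2.57, SE 0.37, adjusted p = 1.53e-06). Actn3, the form of fast glycolytic fibres, ran from 7.72 through 9.22 to 9.79 at week 1. On the 5 arrays of week 2 it read 5.41, 4.93, 7.26, 7.32 and 7.07. These arrays fell into a lower pair and a higher group, and all lay below the arrays of week 1. At week 3 Actn3 ran from 5.20 through 6.02 to 7.41, at week 6 from 6.48 through 7.91 to 9.08 and at week 8 from 7.30 through 8.42 to 8.87. Actn3 was 6.30-fold lower at week 2 than at week 1 (log2 fold change -2.65, SE 0.45, adjusted p = 1.06e-05) and 3.40-fold higher at week 6 than at week 3 (log2 fold change 1.77, SE 0.45, adjusted p = 0.00159). It was the only one of the 9 called between week 6 and week 1, 2.31-fold lower (adjusted p = 0.0248), against 3.61% of all clusters called lower. That call was lost without week 1 replicate 3, week 6 replicate 2 or week 6 replicate 6 (adjusted p = 0.0615, 0.0843 and 0.0538).

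Smpx, whose X-linked gene makes a small protein of the costamere, the attachment of the sarcomere to the cell membrane, was the only one of the 9 called between weeks 2 and 3. Its log2 signal at week 1 was 6.25 on the lowest array, 8.46 in the median and 10.2 on the highest. The 5 arrays of week 2 read 5.24, 4.68, 5.60, 6.49 and 4.40, and week 3 ran from 2.42 through 4.05 to 5.67. The highest array of week 2 lay above the lowest of week 1. Week 6 ran from 6.41 through 8.65 to 9.14 and week 8 from 6.08 through 7.36 to 7.95, and neither overlapped with week 3. Smpx was 8.24-fold lower at week 2 than at week 1 (log2 fold change -3.04, SE 0.54, adjusted p = 1.78e-05) and 19.1-fold higher at week 6 than at week 3 (log2 fold change 4.25, SE 0.54, adjusted p = 1.82e-07). The week 3 signals of Smpx, below every array's median, were not shown to be above background, so the size of that rise is uncertain. The step from week 2 to week 3 was 2.43-fold (log2 fold change -1.28, SE 0.54, adjusted p = 0.0475). It was not called with the mean-valued week 2 array left out and week 6 replicates 4 and 6 given a term of their own (adjusted p = 0.0741), nor in 17 of the 30 fits that left out 1 array, where the adjusted p ran from 0.0508 to 0.139. These arrays were replicates 3 and 5 of week 1, replicates 1, 3, 4 and 5 of week 2, all of week 3 but replicate 3, replicates 2, 4 and 6 of week 6 and replicates 1, 5 and 6 of week 8.

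**Figure D2:**
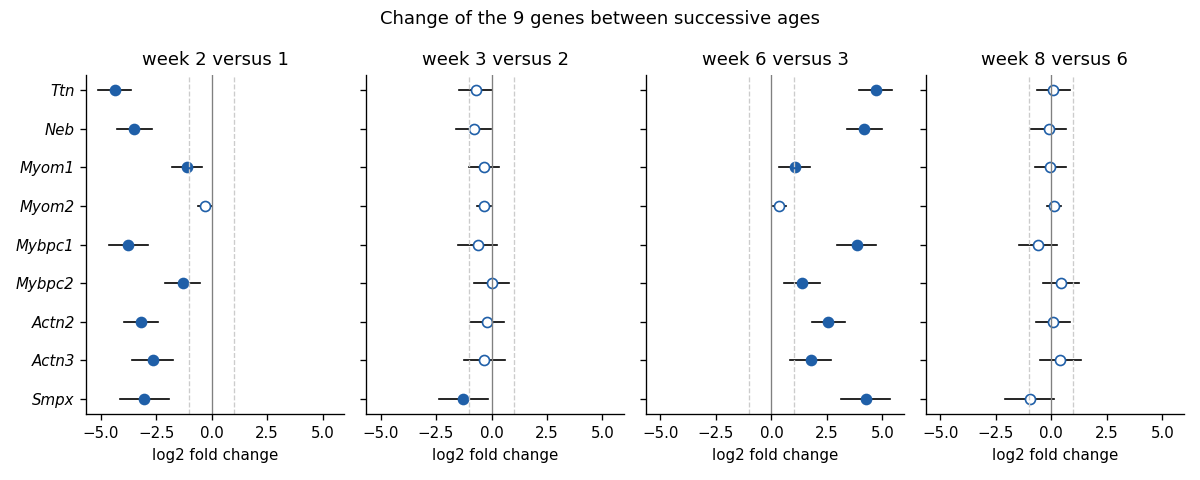
Log2 fold change of each gene (horizontal axes) in the 4 comparisons of successive ages, with 95% confidence intervals from limma. Filled points were called, open points were not, and dashed lines mark a fold of 2. Ttn moved by -4.37 from week 1 to week 2 and by 4.70 from week 3 to week 6, and no point is filled for week 8 versus 6.

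Comparisons of ages farther apart gave the same picture of high and low weeks. Week 3 was lower than week 1 in 8 of the 9 genes, against 4.45% of all clusters called lower, from 2.47-fold in Mybpc2 to 33.8-fold in Ttn. Week 6 was higher than week 2 in 7 genes, against 4.92% of all clusters called higher, and week 8 was higher than week 2 in 7, against 1.27%. Week 8 was higher than week 3 in 8 genes, against 2.45%. Myom1 was called in the comparisons with week 3 and not in week 6 versus 2 or week 8 versus 2 (1.63-fold and 1.59-fold, adjusted p = 0.0822 and 0.135). Its call for week 8 versus 3, at 2.01-fold, was lost without any 1 of 7 arrays, week 3 replicates 2, 4, 5 and 6 and week 8 replicates 1, 2 and 3, at log2 fold changes of 0.83 to 0.99. These comparisons share arrays with those of successive ages. The arrays of 5 genes (Ttn, Neb, Mybpc1, Actn2 and Actn3) did not overlap between week 2 and week 1, against 15.5% of all clusters lower on every array, and those of 5 genes (Ttn, Neb, Mybpc1, Actn2 and Smpx) did not overlap between week 6 and week 3, against 18.9% of all clusters higher on every array.

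Differences between genes read on the same array were used to compare the changes of related genes. The 5 pairs were Neb minus Ttn, Myom2 minus Myom1, Mybpc2 minus Mybpc1, Actn3 minus Actn2 and Smpx minus Ttn. A change of such a log2 difference between weeks says that the signals of the pair changed unequally. Near the background, signal does not change in proportion to RNA, so unequal change of the RNA is not shown where signals were dim. With 5 comparisons each, 25 two-sided exact permutation tests were run over 924 arrangements of the arrays, whose smallest possible p is 0.00216, and 11 passed after Benjamini-Hochberg adjustment. The week 2 array that equals its week's mean was kept in these tests. Over the other 29 arrays the same 11 passed. With week 6 replicates 4 and 6 left out as well, since they mirror each other about the mean and are not independent, 7 of the 25 passed over 27 arrays.

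The signals of the fast and slow forms of myosin-binding protein C changed unequally in all comparisons but week 3 versus 2. Mybpc2 averaged 6.42 at weeks 2 and 3 and Mybpc1 6.47 and 5.85, near the array medians of 6.15 to 6.37. Steps into and out of those weeks therefore do not show unequal change of the RNA. Mybpc2 minus Mybpc1 averaged -2.50 ± 0.776 (SD, n = 6) at week 1, -0.05 ± 1.32 (SD, n = 5) at week 2, 0.57 ± 0.571 (SD, n = 6) at week 3, -1.89 ± 0.599 (SD, n = 6) at week 6 and -0.85 ± 0.315 (SD, n = 6) at week 8. From week 1 to week 2 it rose by 2.45, from week 3 to week 6 it fell by 2.46 and from week 6 to week 8 it rose by 1.04 (exact permutation p = 0.00216, adjusted p = 0.00902 for each). Arrays did not overlap in any of these steps, and all passed over the 27 arrays (adjusted p = 0.0180, 0.0198 and 0.0198). Between week 1 and week 8, ages at which most of the 9 genes stood high, the difference rose by 1.65 (exact permutation p = 0.00216, adjusted p = 0.00902), with every array of week 8 above every array of week 1, and it passed over the 27 arrays (adjusted p = 0.0180).

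Neb minus Ttn was the tightest of the differences, between -1.60 and -1.42 on the 6 arrays of week 1 and between -0.91 and -0.46 on the 5 arrays of week 2. It rose by 0.89 from week 1 to week 2, fell by 0.51 from week 3 to week 6 (exact permutation p = 0.00216, adjusted p = 0.00902 for both) and fell by 0.20 from week 6 to week 8 (exact permutation p = 0.00649, adjusted p = 0.0203). The first 2 of these passed over the 27 arrays (exact permutation, adjusted p = 0.0180 and 0.0198) and the last did not (adjusted p = 0.0866). Between week 1 and week 8 the difference moved by 0.07, which did not pass (exact permutation p = 0.223, adjusted p = 0.338). Smpx minus Ttn rose by 1.33 from week 1 to week 2, and it fell by 1.06 from week 6 to week 8 and by 0.75 between week 1 and week 8 (exact permutation p = 0.00433, 0.0108 and 0.0173, adjusted p = 0.0155, 0.0301 and 0.0394), of which the first passed over the 27 arrays and the others did not (exact permutation, adjusted p = 0.0232, 0.0714 and 0.0541). Myom2 minus Myom1 rose by 0.81 from week 1 to week 2 (exact permutation p = 0.0130, adjusted p = 0.0325), and its fall of 0.69 from week 3 to week 6 did not pass (adjusted p = 0.0541). The rise did not pass over the 27 arrays (exact permutation, adjusted p = 0.0601), and Myom2, dim in every week, had a log2 fold change of -0.30 against -1.12 for Myom1. Actn3 minus Actn2 passed in none of its 5 exact permutation tests. Its smallest unadjusted p was 0.0433, for a fall of 0.80 from week 3 to week 6 (adjusted p = 0.0833). These are differences of array signal, which near the background does not change in proportion to RNA.

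**Figure D3:**
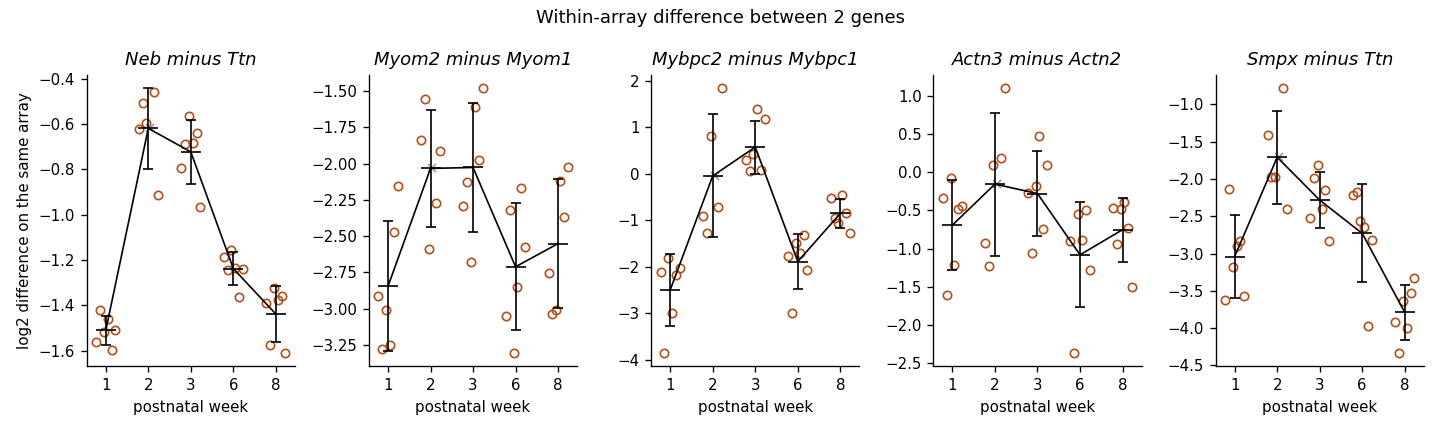
Log2 difference between 2 of the genes read on the same array (vertical axes) against postnatal week. Circles are arrays, the grey cross is the week 2 array that equals its week's mean, and bars are mean and SD (n = 6, n = 5 at week 2). Mybpc2 minus Mybpc1 stood at -2.50 at week 1 and -0.85 at week 8 with no overlap, and Neb minus Ttn returned to within 0.07 of its week 1 mean.

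At weeks 1, 3, 6 and 8 the same arrays tended to be highest or lowest in most of the 9 genes, and at week 2 they were split. At week 1, replicate 6 had the lowest signal in all 9 genes, with a mean deviation of -1.42 log2 units from the week's mean, and replicate 2 had the highest in 7 of them (0.92). At week 3, replicate 3 was highest in all 9 (1.23) and replicate 6 lowest in 7 (-0.94). Replicate 3 was highest in all 9 at week 6 (0.79) and replicate 5 lowest in 6 (-0.70). At week 8, replicate 2 was highest in 8 (0.70) and replicate 4 lowest in 8 (-0.83). At week 2, replicates 2 and 6 were each lowest in 4 genes and replicate 1 in 1, while replicate 5 was highest in 5 and replicate 3 in 4. On week 2 replicate 6, Mybpc1 was at its lowest (5.31) while Mybpc2 read 7.15, above all but replicate 3. The gap between the highest and the lowest mouse of a week was thus wide beside several of the changes between weeks. Without week 1 replicate 6, 4 of the 9 genes (Mybpc1, Actn2, Actn3 and Smpx) were called lower at week 8 than at week 1, and 2 (Actn2 and Actn3) were called lower at week 6 than at week 1. Leaving out the lowest array raises the week 1 mean of every one of the 9 genes. Without replicate 2 of week 1 the Mybpc1 call for week 8 versus 1 was lost (limma, adjusted p = 0.0859). With all arrays, 4.8% and 3.61% of all clusters were called lower at weeks 8 and 6 than at week 1.

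The 36 pairs among the 9 genes correlated at r = 0.610 to 0.995 over the 30 arrays, with a median of 0.867, and at 0.487 to 0.988 for deviations within weeks over 29 arrays, with a median of 0.821. Over the same 29 arrays, the mean deviation of the 9 genes correlated at r = 0.968 with that of the 12 striated muscle markers, at 0.610 with the 10 fibroblast and matrix markers and at 0.574 with 7 cardiac markers. It correlated at 0.40 with 8 smooth muscle markers, 0.140 with 6 markers of retinal pigment epithelium, -0.212 with 6 photoreceptor markers and -0.447 with 7 surface epithelium markers. The points share their array, so these are descriptions, and the mirrored arrays of week 6 count as 2 of the 29. Without both, over 27 arrays, r was 0.972 with the striated muscle markers, and the pairs among the 9 genes ran from 0.484 to 0.988 with a median of 0.819. The 9 genes therefore stood high on the arrays on which striated muscle markers stood high.

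**Figure D4:**
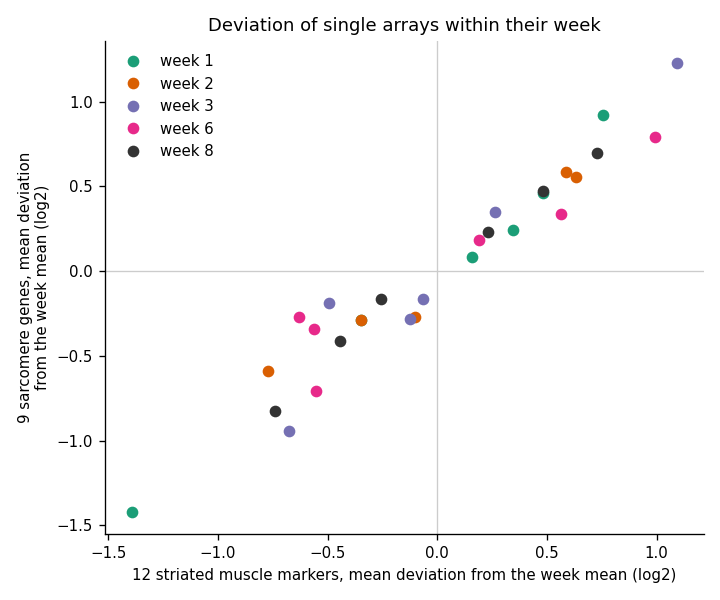
Mean deviation of the 9 genes from their week's mean (vertical axis, log2) against that of the 12 striated muscle markers (horizontal axis, log2), 1 point for each of 29 arrays, coloured by week. The array equal to its week's mean is left out, and week 6 replicates 4 and 6 mirror each other about 0. The points lie along a line (r = 0.968, and 0.972 over the 27 arrays without the mirrored pair), from week 1 replicate 6 at -1.42 to week 3 replicate 3 at 1.23 on the vertical axis.

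Markers of other tissues moved between weeks too. Of the 10 fibroblast and matrix markers 7 were called lower at week 2 than at week 1, against 7.73% of all clusters called lower. From week 2 to week 3, 5 were called higher, against 2.67% of all clusters called higher. In that step the sarcomere genes stayed low. The counts of 7 and 5 became 5 and 4 after quantile normalization. All 6 photoreceptor markers measured and 5 of 6 markers of retinal pigment epithelium were called lower from week 1 to week 2 (7.73% of all clusters). Between week 2 and week 3, 5 of each were called higher (2.67% of all clusters). The 5 photoreceptor calls became 4 with the mean-valued week 2 array left out and week 6 replicates 4 and 6 given a term of their own. They became 3 after quantile normalization. From week 3 to week 6, 3 of the 6 pigment epithelium markers were called higher and none lower, against 3.9% of all clusters called higher. After quantile normalization 4 of them were called higher. No photoreceptor marker was called higher in that step and 1 was called lower, against 3.68% of all clusters called lower. The mean level of the photoreceptor markers ranged from 8.04 to 11.3 on the arrays of week 1 and from 4.83 to 6.91 on those of week 2. All 7 surface epithelium markers were called higher from week 1 to week 2, against 3.82% of all clusters called higher, their mean level ranging from 7.85 to 9.98 at week 1 and from 10.4 to 11.3 at week 2. Smooth muscle markers did not take the course of the 9 genes. None of 8 was called from week 1 to week 2 in limma (3 had an unadjusted p under 0.05), and 4 were called lower from week 3 to week 6, against 3.68% of all clusters called lower. The 4 became 3 after quantile normalization. Of the 7 cardiac markers none was called from week 1 to week 2 or from week 3 to week 6 (5 and 2 had an unadjusted p under 0.05), and their mean level lay between 5.84 and 6.47 on all arrays of all weeks. The part of these shifts in the changes of the 9 genes was not tested.

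The other genes of the sarcomere were taken from lists of partner proteins by site, 45 genes measured in all. From week 1 to week 2, 24 of the 45 fell and none rose, against 7.73% of all clusters called lower, and from week 3 to week 6, 20 rose and none fell, against 3.9% called higher. After quantile normalization 1 of them, Nebl, was called higher from week 1 to week 2 (log2 fold change 1.19). Their median log2 fold changes were -1.06 and 0.71. None was called from week 2 to week 3 in limma, where 8 had an unadjusted p under 0.05. From week 6 to week 8, 1 was called higher: Ckm, the muscle creatine kinase of the M-band, at 2.51-fold (adjusted p = 0.0138), a share near the 1.11% of all clusters called higher. After median centring Acta1 was called too (log2 fold change 1.07, adjusted p = 0.0116).

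At the Z-disc, 10 of 18 partners fell from week 1 to week 2 and 7 rose from week 3 to week 6. The largest falls were in myozenin 1, encoded by Myoz1 (9.25-fold), myotilin, encoded by Myot (8.42-fold), and Xirp2, an actin-binding repeat protein (5.30-fold), and the same genes led the rise, Myot by 7.63-fold, Xirp2 by 7.05-fold and Myoz1 by 3.98-fold. At the M-band, 4 of 8 fell and 3 rose, led by Ckm (13.7-fold lower, then 3.99-fold higher), the muscle methyltransferase Smyd1 (3.08-fold, then 2.70-fold) and the ubiquitin ligase Trim55, which binds titin (2.24-fold, then 2.40-fold). Of 4 partners of the elastic part of titin, 2 fell and 2 rose: Fhl1, a LIM domain protein (4.47-fold, then 2.33-fold), and Ankrd23, a muscle ankyrin repeat protein (3.12-fold, then 2.08-fold). The rise of Ankrd23 was not called after median centring (log2 fold change 0.97).

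Among 7 partners on the thick filament, the skeletal myosin heavy chains alone were called, 3 lower and then 3 higher. Myh1 fell by 27.9-fold from week 1 to week 2 and rose by 9.30-fold from week 3 to week 6, Myh2 fell by 15.2-fold and rose by 13.1-fold, and Myh4 fell by 13.6-fold and rose by 17.0-fold. These chains are near-identical in sequence, so their probes may be shared in part. Among 8 genes that build or cap the thin filament, 5 fell and 5 rose. Skeletal actin (Acta1) fell by 18.7-fold and rose by 3.92-fold, the kelch protein Klhl41, which stabilizes nebulin, fell by 10.1-fold and rose by 12.7-fold, tropomodulin 1 (Tmod1), which caps the pointed end, fell by 4.94-fold, and cardiac actin (Actc1) rose by 4.54-fold. Tmod1 rose too, from a mean log2 signal of 6.64 at week 3 to 8.25 at week 6. Actc1 had fallen, from 9.26 at week 1 to 7.18 at week 2. By week 8, 4 of the 45 genes were called below week 1, against 4.8% of all clusters: Myoz2 (2.74-fold), Pdlim3 (2.08-fold), Myh1 (2.77-fold) and Myh2 (2.15-fold). After quantile normalization Pdlim3 was not called (log2 fold change -0.93) and Nebl was called above week 1 (log2 fold change 1.00). Acta1 and Ckm are also among the 12 striated muscle markers.

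Among 6 relatives of these proteins that most cells use, none was called lower from week 1 to week 2 and 2 rose, against 3.82% of all clusters called higher: Actn4, an alpha-actinin outside muscle, by 2.05-fold and Pdlim1, a LIM protein that binds alpha-actinin, by 2.07-fold. The others were not called: Flna (-0.44), Actn1 (-0.43) and Tln1 (-0.33) had log2 fold changes below 0 with adjusted p = 0.0331, 0.0372 and 0.00848, and Vcl stood at 0.09 (adjusted p = 0.548). From week 3 to week 6, Flna, the widely expressed filamin, fell by 2.61-fold and Actn1 by 2.13-fold, against 3.68% of all clusters called lower, the latter short of 2-fold after quantile normalization (log2 fold change -0.95). The muscle alpha-actinins were thus called lower where Actn4 was called higher.

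**Figure D5:**
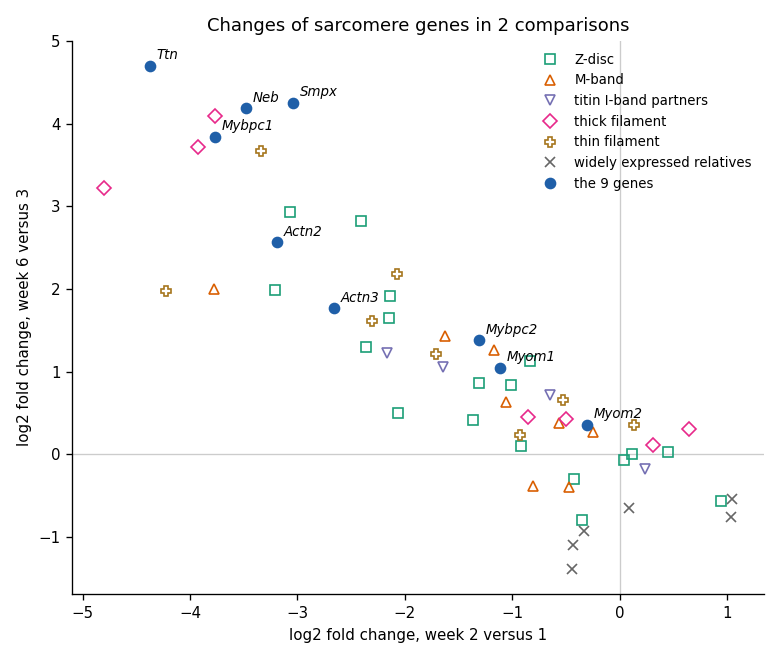
Log2 fold change from week 3 to week 6 (vertical axis) against that from week 1 to week 2 (horizontal axis) for the 9 genes (filled circles), their partners by site and the widely expressed relatives. Each point is a gene, and the 2 comparisons share no arrays. Ttn lies at -4.37 and 4.70, Myh1 at -4.80 and 3.22, and the relatives Actn4 and Pdlim1 lie to the right of 0 and below it.

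Over the 30 arrays and 19937 other genes, the gene most like Ttn was Neb (Pearson r = 0.995). The 5 most like Ttn outside the 9 were the fast troponin C gene Tnnc2 (r = 0.993), Klhl41 (0.986), the fast troponin T gene Tnnt3 (0.981), Xirp2 (0.976) and Myot (0.976). For Smpx the most alike was Ppp1r3a, a glycogen-targeting subunit of protein phosphatase 1 in muscle (0.978), followed outside the 9 by Klhl41 (0.972), the kinase gene Mylk4 (0.970), Apobec2 (0.967) and Myot (0.964), with Mybpc1 at 0.975. Within weeks, over 29 arrays, these 5 genes correlated with Smpx at 0.914 to 0.950.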

How the data were processed

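Total RNA of single sclerae was measured on 30 arrays, 6 for each of weeks 1, 2, 3, 6 and 8, with groups and replicate numbers taken from the sample titles. The values are the deposited log2 signals of 35556 transcript clusters, which the authors made in Partek 6.5. The paper states robust multiarray averaging and the submitters' processing notes name GCRMA, a related method, so the background correction is unsettled, and it can change the size of low signals. The methods also state removal of a batch effect by scan date; no scan date was used here. Gene symbols came from the platform annotation, where 21789 clusters carry 1 symbol, 1621 several and 12146 none. The columns of all 30 arrays were used. The members and lists were chosen with earlier results of these data known.

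limma 3.58.1 (R 4.3.3) was fitted to all clusters and arrays with 1 mean per week and no covariate, and tested on simulated data. A call needed a fold of at least 2 and a Benjamini-Hochberg adjusted p of 0.05 or less over all 35556 clusters of a comparison, for 10 comparisons. The number of arrays limits the precision. Named beside the 9 genes were up to 3 called genes per partner list with the largest log2 fold change in week 2 versus 1 and in week 6 versus 3, and the 5 other genes best correlated with Ttn and with Smpx. Genes called in a count of 5 or fewer were added after their values were seen. Within-array differences were compared by two-sided exact permutation tests. Replicate numbers were not used as pairs in the main fit. The deviations of 56 same-numbered pairs of arrays had r from -0.412 to 0.462, 13 over 0.1. They were not set against differently numbered pairs, so whether the numbers pair the arrays was not tested. The alternatives tried were median centring, quantile normalization, array weights, filters on clusters, fits of the 2 weeks compared, a replicate block, no fold threshold and each array left out. Another was added after the data were seen, for both kinds of test. It left out week 2 replicate 4. It gave week 6 replicates 4 and 6 a term of their own in limma and left them out of the permutation tests.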

Additional observations from a re-analysis of the deposited data

Results flagged for a closer look

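In 45 groups of arrays (9 genes at 5 ages), 2 held an array whose gap to its neighbour passed the limit for its group. This limit was 0.625 of the group's range for 6 arrays and a larger share for the 5 arrays of week 2. Both were in Myom2, at week 3 replicate 3, with a log2 signal of 5.76 against 5.30 on the next array, and at week 8 replicate 2, with 6.18 against 5.77. These arrays also had the highest signal of their week in 9 and 8 of the 9 genes. Chance alone puts about 1 in 20 groups past its limit.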

How the results depend on the processing

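The calls of Ttn, Neb, Mybpc1, Mybpc2, Actn2, Actn3 and Smpx in week 2 versus 1 and week 6 versus 3 kept their direction and their side of the threshold in every alternative run. The fall of Smpx from week 2 to week 3, the single member called there, was lost (0 members) with median centring, quantile normalization and array weights. It was also lost with the mean-valued week 2 array left out and the mirrored week 6 arrays given a term of their own. Leaving out 1 array, the members called lower ranged from 0 to 2 in week 3 versus 2, from 0 to 1 in week 8 versus 6 (Smpx, without week 6 replicate 5), from 0 to 2 in week 6 versus 1 and from 0 to 4 in week 8 versus 1, and the within-array changes past the threshold from 9 to 13. In the other 6 comparisons the counts stayed at 7 or 8 when 1 array was left out. Median centring ended the call of Myom1 in week 6 versus 3 (log2 fold change 0.96) and quantile normalization that in week 2 versus 1 (-0.92). With no fold threshold Myom2 was called in 3 comparisons. With the replicate number as a block, 8 members were called lower in week 2 versus 1, and none of the 90 calls of a member in a comparison changed. In the paired sign-flip test, 0 of 25 within-array changes passed after adjustment (smallest adjusted p 0.0868), where 9 reached an unadjusted p of 0.05 or less and the smallest p this test can give is 0.03125. With the week 2 array and both mirrored week 6 arrays left out, 7 of the 25 passed by exact permutation. The mean of several clusters for a gene gave no other value, as each member had 1 cluster, and the filter on dim clusters left out Myom2. Array weights were estimated over 29 arrays, as week 2 replicate 4 has no deviation. The cause of each lost call was not tested. The number of arrays and dim signals, with the week means of Myom2 below the array medians and Smpx down to 2.42 at week 3, limit what these data show.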

Other observations

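Other relatives of the giant and scaffold proteins, chosen after their values were seen, moved little or otherwise. Nebl encodes nebulette, a relative of nebulin, and its mean log2 signal was 7.81 ± 0.335 (SD, n = 6) at week 1 and 8.75 ± 0.195 (SD, n = 5) at week 2, 1.92-fold higher with no overlap of arrays (adjusted p = 1.11e-06). This difference is below the fold of 2, but quantile normalization takes it past (log2 fold change 1.19). At week 3 the mean of Nebl was 8.98 ± 0.213 (SD, n = 6), and Nebl was called higher there than at week 1 without any change of scaling. Nebl was 1.47-fold lower at week 6 than at week 3 (adjusted p = 0.00106). Mybpc3, the cardiac form of myosin-binding protein C, stood at 5.99 ± 0.201 (SD, n = 6) at week 1 and 6.63 ± 0.282 (SD, n = 5) at week 2, 1.56-fold higher (adjusted p = 9.13e-06). Its week 1 mean lay below the lowest array median (6.15). The 7 cardiac markers, also dim, had a median log2 fold change of 0.28 in that comparison. Among them the mean of Nppa rose from 5.59 to 6.22, while that of Ryr2 fell from 6.59 to 6.26. The rise of Mybpc3 was thus not particular to it. Myom3, another myomesin, was 1.48-fold lower at week 2 than at week 1 (adjusted p = 0.0102), short of the fold of 2. The part of other cell types in their differences was not tested.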
